A study of Homo sapiens with 4 samples.

Results

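The 10 genes described here encode motor proteins of the kinesin family that work on the mitotic spindle: KIFC1, KIF11, KIF14, KIF15, KIF18A, KIF20A, KIF23, KIF2C, KIF4A and CENPE. They were chosen by name, and every gene probe of the array carrying 1 of these names was taken, which gave 12 probes of 34127 and 10 genes of the 27224 that had a usable probe. KIF23 and KIF4A each had 2 probes and the other 8 genes had 1. All 12 probes were well above background on all 4 arrays. RNA was measured on 1-colour Agilent arrays in the human prostate cancer cell lines LNCaP, an androgen-responsive line from a lymph node metastasis, and PC3, an androgen-independent line from a bone metastasis. Each line was measured untreated (control) and after 24 h in 10 µM atorvastatin (ATO), a statin that inhibits HMG-CoA reductase in the mevalonate pathway. All cells were grown in RPMI medium with serum and seeded to be sparse when ATO was added; the labels give the controls as untreated, and the study's methods name DMSO as the solvent of ATO without saying whether the controls of the arrays received it. Each of the 4 groups was 1 array from 1 RNA sample, so there were no biological replicates.

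Kinesins are enzymes that burn ATP to step along microtubules or to take their ends apart. In a dividing cell the mitotic members push the spindle poles apart, bundle the microtubules between them, carry chromosomes to the spindle equator and prepare the cleavage of the cell. Their messenger RNAs are known to be made mainly in G2 phase and mitosis, under a repressor complex called DREAM in resting cells and under B-MYB and FOXM1 in cycling cells; the complexes meet DNA at a short element, the cell cycle genes homology region (CHR), often with CCAAT boxes bound by NF-Y nearby.

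The number of arrays limits the precision here. Between 48.5% and 52.9% of gene spots were well above background on each array. All 11 marker genes fixed for the lines were brighter in the line they mark, and 8 of them were well above background in that line alone. Intensities below are the scanner's processed spot intensities, and log2 ratios compare intensities after each was divided by the 75th percentile of its array. The error given for a ratio is the SD of log2 ratios among copies of a same probe spotted 10 times, 0.226 for LNCaP and 0.187 for PC3 over the whole array. It measures spot error on these arrays and leaves out variation between cultures.

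The promoters of the 10 genes are shown because the genes share more than a function in mitosis. The table of RefSeq promoters (GRCh38.p14) held all 10, each with 250 bases before the transcription start and 50 after it. The hexamers TTTGAA and TTTAAA, the core letters of the CHR, were searched on both strands, as was the CCAAT box, which reads ATTGG where it lies on the opposite strand. Each of the 10 windows held TTTGAA or TTTAAA, and in all 10 at least 1 copy began no more than 100 bases before the start or lay after it. Among the 9189 promoters of genes well above background on at least 1 array, 15.6% held either hexamer and 6.30% held it that close to the start. Either hexamer was in 3 of 7 promoters of other kinesins of the spindle and centrioles. It was in 9 of 15 promoters of mitotic kinases and checkpoint genes, and in 21 of 25 promoters of kinesin partners and cargo. CCAAT was found in 7 of the 10 windows and in 36.9% of the same 9189. It was about as common in related lists: 5 of 7 promoters of the other spindle kinesins and 17 of 25 of the partners. It was in 11 of 15 of the mitotic kinases and checkpoint genes, and in 6 of 8 of the MCM helicase and GINS genes. Neither element is therefore particular to the 10 kinesins. A match of letters is a description and not a binding site. The 100 bases before the start are given below for 8 of the genes, with the hexamers and CCAAT in capitals, on the strand of the gene.

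KIF11, chr10:92593030-92593129, plus strand: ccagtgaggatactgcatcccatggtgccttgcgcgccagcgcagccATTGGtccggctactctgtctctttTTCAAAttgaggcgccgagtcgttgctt
KIF15, chr3:44761694-44761793, plus strand: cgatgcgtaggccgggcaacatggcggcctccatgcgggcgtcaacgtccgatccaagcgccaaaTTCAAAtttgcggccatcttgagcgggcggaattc
KIFC1, chr6:33391723-33391822, plus strand: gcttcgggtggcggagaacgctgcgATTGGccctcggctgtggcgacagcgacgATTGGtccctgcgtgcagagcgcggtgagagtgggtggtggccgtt
KIF18A, chr11:28108157-28108256, minus strand: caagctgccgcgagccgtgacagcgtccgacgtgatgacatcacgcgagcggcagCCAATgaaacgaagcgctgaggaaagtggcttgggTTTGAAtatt
CENPE, chr4:103198344-103198443, minus strand: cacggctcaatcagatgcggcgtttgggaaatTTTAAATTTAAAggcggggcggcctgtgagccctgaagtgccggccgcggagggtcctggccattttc
KIF4A, chrX:70290004-70290103, plus strand: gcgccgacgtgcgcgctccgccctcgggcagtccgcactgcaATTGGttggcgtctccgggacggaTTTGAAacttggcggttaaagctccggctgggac
KIF20A, chr5:138179012-138179111, plus strand: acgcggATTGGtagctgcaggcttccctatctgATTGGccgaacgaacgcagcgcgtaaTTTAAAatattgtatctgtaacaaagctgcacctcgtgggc
KIF23, chr15:69414249-69414348, plus strand: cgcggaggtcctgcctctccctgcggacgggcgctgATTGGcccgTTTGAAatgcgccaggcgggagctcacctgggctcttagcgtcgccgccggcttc

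In KIF11, KIF20A and KIF4A the CCAAT box and the hexamer after it were separated by 20, 21 and 19 bases, and in KIF14 by 18 bases. The gap was 30 bases in KIF18A, 45 in KIFC1 and 4 in KIF23. The hexamer of KIFC1 lay after the start and is therefore not in the stretch shown, and that of KIF2C overlapped the start itself. CENPE held 2 copies of TTTAAA side by side. KIF15, CENPE and KIF2C had no CCAAT in the window.

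After ATO the kinesin messages were lower in both lines by small amounts. In LNCaP cells all 10 genes were lower, with log2 ratios from -0.85 to -0.13 and a median of -0.29. In PC3 cells 9 of 10 were lower, from -0.75 to 0.01, with a median of -0.34. Among all genes well above background on both arrays of a line, 46.1% were lower in LNCaP and 48.2% in PC3, and the medians of all genes were 0.02 and 0.01. Few members reached 1.5-fold: KIFC1 in LNCaP, and KIFC1 and KIF15 in PC3, while 1.10% of all genes were at least 1.5-fold lower in LNCaP and 7.27% in PC3. In total RNA of a culture, fewer cells in G2 phase or mitosis and less of each message per cell cannot be told apart.

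**Figure D1:**
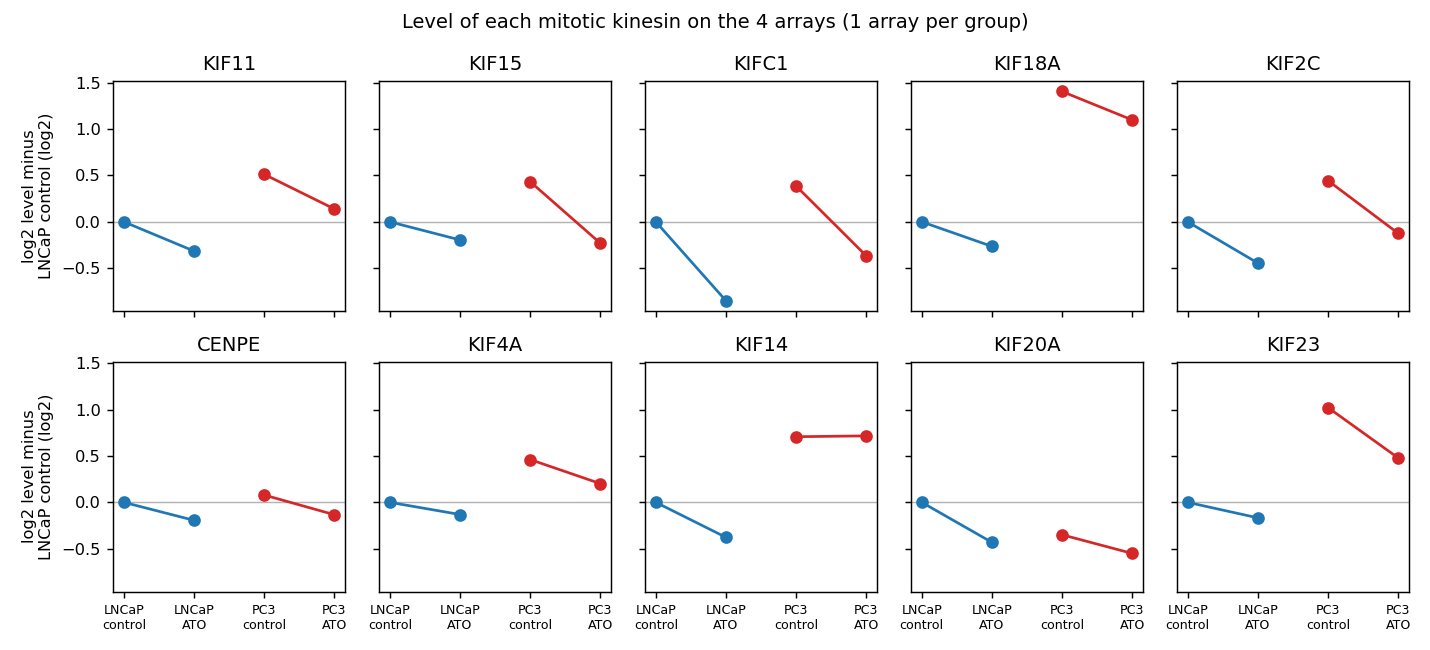
Log2 level of each mitotic kinesin, minus its level in LNCaP control cells, on the 4 arrays (1 point per array; blue, LNCaP; red, PC3; lines join control to ATO of a line). The ATO point lies below the control point in every panel for LNCaP and in every panel but KIF14 for PC3; the height of PC3 over LNCaP depends on the scaling and turned for KIFC1, KIF15, KIF2C, KIF4A and CENPE with the 50th percentile and for KIF20A with spike-ins.

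The motors that set the distance between spindle poles were lower in both lines. KIF11 (Eg5), which slides antiparallel microtubules apart and is the target of the antimitotic agent monastrol, had intensities of 1101 untreated and 946 after ATO in LNCaP cells, and 1851 untreated and 1379 after ATO in PC3 cells. Both ATO arrays were below the control of their line, by log2 ratios of -0.32 in LNCaP and -0.37 in PC3. Each was larger than the spread among copies in the lower part of the array, which holds its spot, 0.291 and 0.207. With spike-in scaling the LNCaP ratio was -0.13, and with the 50th percentile the PC3 ratio was -0.19, both within those spreads. Its probe is at chr10:94404607-94404666 on hg18.

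KIF15, a motor that can take over from KIF11 once the spindle has formed, read 887 untreated and 829 after ATO in LNCaP cells, and 1412 untreated and 860 after ATO in PC3 cells. In unscaled intensity the PC3 control array was well above the other 3, which lay close together. That order depends on the scaling: with the 50th percentile the log2 ratio of PC3 control over LNCaP control was -0.056. The log2 ratio of ATO over control was -0.66 in PC3, a 1.58-fold lower level, and -0.20 in LNCaP, which is within the copy spread of the whole array. The single spot of this probe (chr3:44869390-44869449, hg18) lies in the upper part of the array. The SD among copies there was 0.161 in PC3 and 0.134 in LNCaP, and the LNCaP ratio is beyond the latter. With spike-in scaling the LNCaP ratio was -0.013, within that spread, so the LNCaP direction of KIF15 is not settled.

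KIFC1 (HSET), which moves to microtubule minus ends, draws poles together and clusters the extra centrosomes of some cancer cells, had the lowest log2 ratio of the 10 genes in both lines. It read 981 untreated and 582 after ATO in LNCaP cells, and 1511 untreated and 865 after ATO in PC3 cells. Both ATO intensities were below both control intensities, but the order across lines depends on the scaling. With spike-ins the log2 ratio was 0.892 for PC3 control over LNCaP control and -0.829 for PC3 ATO over PC3 control. That put PC3 ATO slightly above LNCaP control. The log2 ratios were -0.85 in LNCaP and -0.75 in PC3, or 1.80-fold and 1.68-fold lower.

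The KIFC1 values rest on a single spot in a region where copies spread widely. Its probe (chr6:33482406-33482599, hg18) was spotted in row 522 of 532, where copies of other probes varied more: in the last 38 rows the SD of copy ratios was 0.347 for LNCaP and 0.365 for PC3, against 0.134 and 0.161 in the upper part. In those rows 4.86% of copies in LNCaP and 9.31% in PC3 lay 1.5-fold or more below their probe's typical ratio. The local background of the KIFC1 spot was 220.5 on the LNCaP ATO array, just past the limit of 219 for a bright background, and 119, 111 and 88 on the LNCaP control, PC3 control and PC3 ATO arrays. No second probe of KIFC1 was there to compare, and the part of the spot's place in its ratio was not tested. Without genes in a bright local background, 9 members were left in LNCaP, all 9 were lower, none reached 1.5-fold and the median was -0.26.

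The KIFC1 probe is printed because it carries the largest difference; its 60 bases cover 194 bases of genome, so it crosses an intron.
KIFC1 probe: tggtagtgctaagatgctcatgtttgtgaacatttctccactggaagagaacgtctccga

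**Figure D2:**
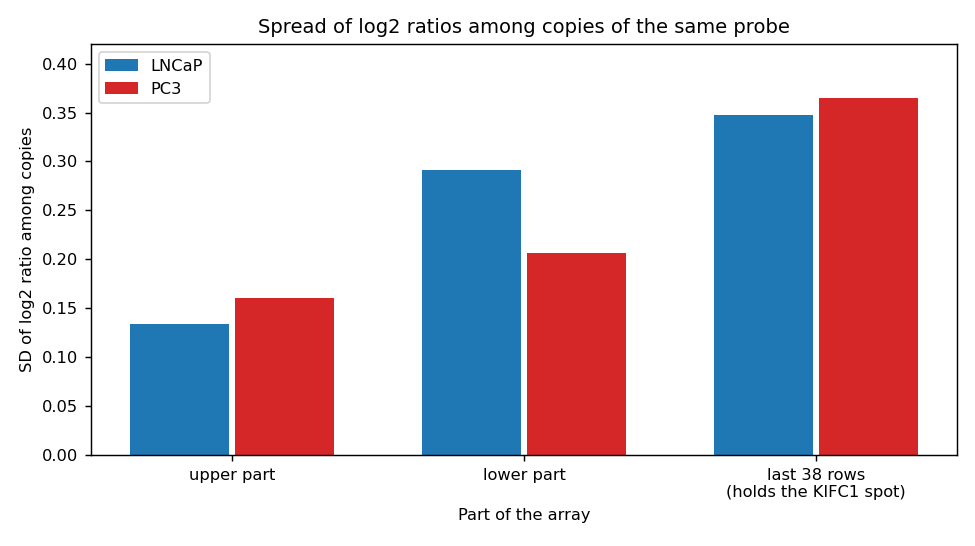
SD of log2 ratios (ATO over control) among copies of the same probe, by part of the array and cell line. In the last 38 rows, which hold the KIFC1 spot, the SD was 0.347 in LNCaP and 0.365 in PC3, higher than in the upper and lower parts.

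The motors that act on microtubule ends and at kinetochores were lower as well, by 1.14 to 1.48-fold. KIF2C (MCAK), which takes apart microtubules that are wrongly attached to kinetochores, read 2076 untreated and 1632 after ATO in LNCaP cells, and 3329 untreated and 2168 after ATO in PC3 cells. Its log2 ratios were -0.44 and -0.57, beyond the copy spread in both lines. Its probe is at chr1:45005653-45005712 on hg18.

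KIF18A, which dampens the oscillation of chromosomes at the spindle equator, read 108 untreated and 96.1 after ATO in LNCaP cells, and 336 untreated and 263 after ATO in PC3 cells. The log2 ratios after ATO were -0.26 and -0.31, the former close to the scanner software's own error for that ratio of 0.27. With spike-ins the LNCaP ratio was -0.082, within the copy spread, so the LNCaP direction of KIF18A is not settled.

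CENPE, the kinetochore motor that carries unaligned chromosomes to the equator, was measured by a probe spotted 10 times (chr4:104246788-104246847, hg18). Its spots, with outliers left out, averaged 880 ± 48.3 (SD, n = 9 spots) untreated and 824 ± 60.8 (SD, n = 10 spots) after ATO in LNCaP cells. In PC3 cells they averaged 1096 ± 51.0 (SD, n = 9 spots) untreated and 913 ± 46.9 (SD, n = 9 spots) after ATO. The spots of ATO and control overlapped in both lines once scaled. Compared position by position, the ATO spot was the lower at 9 of 9 positions in each line, by -0.18 ± 0.11 (SD, n = 9 positions) in LNCaP and -0.21 ± 0.04 (SD, n = 9 positions) in PC3. That count depends on the scaling: it was 3 of 9 in LNCaP with spike-ins and 7 of 9 in PC3 with the 50th percentile. The log2 ratios were then -0.013 in LNCaP and -0.025 in PC3, so the direction of CENPE is not settled. Spots of 1 array are not replicates of the treatment.

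Of the motors of the central spindle and of cytokinesis, 2 had a pair of probes and 1 was spotted 10 times. KIF20A (MKLP2), which brings the chromosomal passenger complex to the midzone in anaphase, was the latter. Its spots averaged 1454 ± 74.1 (SD, n = 10 spots) untreated and 1157 ± 110 (SD, n = 10 spots) after ATO in LNCaP cells. In PC3 cells they averaged 1346 ± 81.4 (SD, n = 10 spots) untreated and 1130 ± 66.1 (SD, n = 10 spots) after ATO. In LNCaP the lowest control spot, at 1359, was above the highest ATO spot, at 1292, and the 2 sets of spots did not overlap after scaling by the 75th percentile either, though they did with spike-ins. The position-wise log2 ratio was -0.43 ± 0.16 (SD, n = 10 positions). In PC3 the spots overlapped and the ratio was -0.20 ± 0.11 (SD, n = 10 positions). The ATO spot was lower at all 10 positions in both lines, but with the 50th percentile at only 3 of 10 in PC3. With their copies spread over the array, KIF20A and CENPE are the members whose ratios do not rest on a single spot per probe.

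Its probe covers chr5:137549980-137550703 (hg18), 724 bases of genome for 60 bases of probe, and so crosses at least 1 intron.
KIF20A probe: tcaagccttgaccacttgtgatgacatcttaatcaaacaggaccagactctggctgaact

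**Figure D3:**
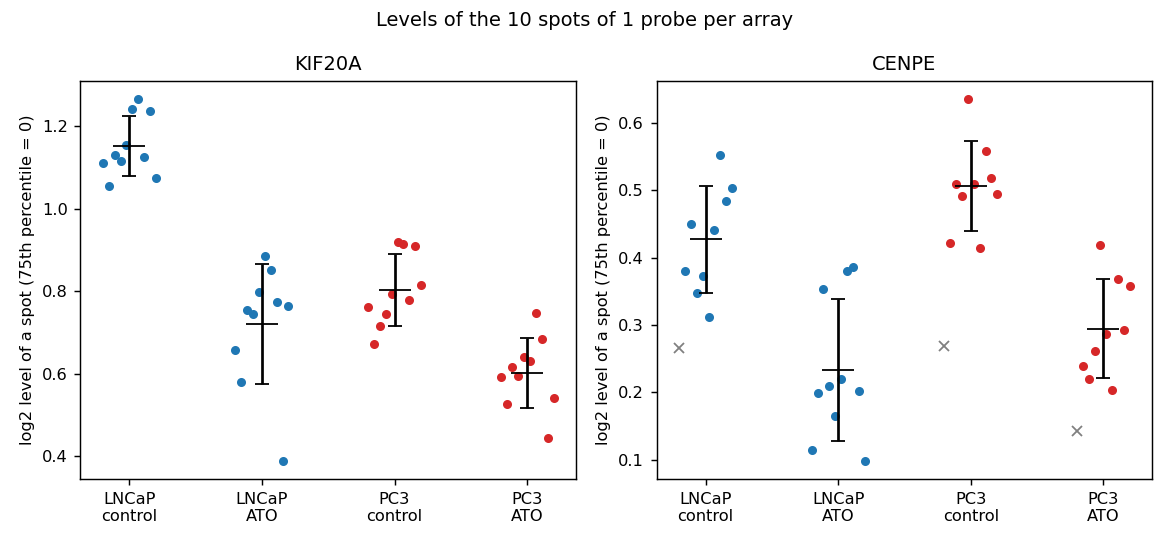
Log2 level of each of the 10 spots of the KIF20A probe (left) and the CENPE probe (right) on each array, with the mean and SD of the spots used (black) and outlier spots left out (grey crosses). For KIF20A the LNCaP control spots lie above all LNCaP ATO spots, which overlapped them with spike-in scaling; for CENPE the spots of ATO and control overlap in both lines.

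KIF23 (MKLP1), the motor of the centralspindlin complex that marks the site of cleavage, read 1594 untreated and 1519 after ATO in LNCaP cells, and 3814 untreated and 2527 after ATO in PC3 cells with its brighter probe (chr15:67527578-67527637, hg18). Its second probe (chr15:67525424-67525483, hg18) read 412, 348, 861 and 605 in the same order. In PC3 the log2 ratios of the probes were -0.54 and -0.46, and in LNCaP they were -0.17 and -0.34. Both probes were lower in both lines, and in LNCaP they differed from each other by less than the copy spread.

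KIF4A, a chromokinesin that also shortens the overlap of midzone microtubules with PRC1, read 820 untreated and 801 after ATO in LNCaP cells, and 1330 untreated and 1072 after ATO in PC3 cells (brighter probe, chrX:69556872-69556931, hg18). The second probe read 452, 397, 750 and 615 in the same order. The log2 ratios of the brighter and the second probe were -0.13 and -0.28 in LNCaP and -0.26 and -0.23 in PC3. With intensities scaled by spike-in controls in place of the 75th percentile, the LNCaP ratios of KIF23 and KIF4A were 0.02 and 0.05, so their LNCaP direction is not settled.

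KIF14, which brings citron kinase to the midbody, was the exception in PC3. It read 284 untreated and 234 after ATO in LNCaP cells, and 546 untreated and 530 after ATO in PC3 cells, with log2 ratios of -0.38 in LNCaP and 0.01 in PC3. The PC3 ratio was within the copy spread; it became -0.07 with spike-in scaling, 0.11 with the normexp background and 0.195 with the 50th percentile.

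**Figure D4:**
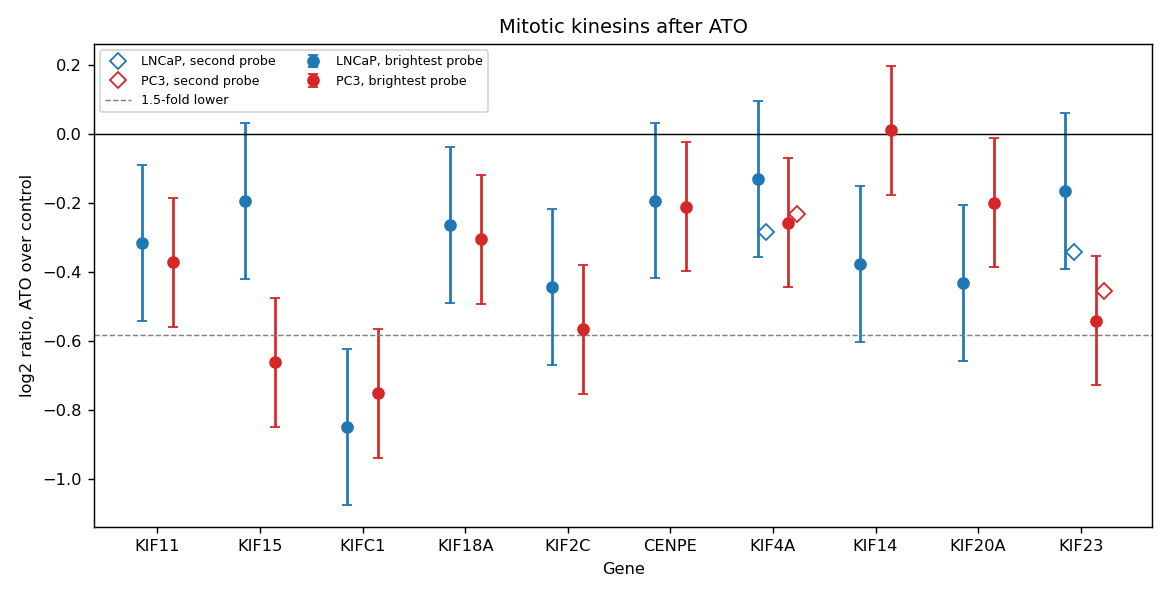
Log2 ratio of ATO over control for each member in LNCaP (blue) and PC3 (red); filled points are the brightest probe of a gene, with bars of 1 SD among copies over the whole array, and open diamonds are second probes. KIFC1 lies below the 1.5-fold line in both lines and KIF15 in PC3; with spike-in scaling KIF23 and KIF4A in LNCaP were just above 0.

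The responses of the lines differed by more than the spread of such a difference, 0.293, for KIF15 and KIF14, and for KIF23 by its brighter probe alone. KIF15 had a lower log2 ratio in PC3 than in LNCaP by -0.47, and KIF14 a higher one by 0.39. The brighter KIF23 probe differed by -0.38, but its second probe by -0.11 and the median of both by -0.245, inside that spread. The other 7 differed by 0.23 or less. The spread of 0.293 is that of single spots, so it is too wide for KIF20A and CENPE, whose ratios are averages over several spots. KIF20A differed by 0.231 and is not shown by that spread to be alike in the lines. With spike-ins it was at -0.25 in LNCaP and -0.278 in PC3. Which genes pass depends on the scaling, since the 50th percentile or spike-ins shift this difference equally for every gene. With spike-ins KIF14 was at -0.195 in LNCaP and -0.068 in PC3, a difference inside the spread. KIF2C, at -0.262 and -0.643, was then beyond it. With the 50th percentile KIF15 was at -0.186 and -0.477, just inside it. With 1 array per group these differences could not be tested.

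The treatment was tested with limma over both lines, with the cell line as a block, which leaves 1 residual degree of freedom. No member passed at an adjusted p of 0.05, nor did any of the 11902 genes tested (0%). The adjusted p of the members was between 0.759 and 0.776. At an unadjusted p under 0.05, 525 genes were found and 2.39% of all genes were on the lower side. Of the members, 2 were on that side: KIFC1, with a mean log2 ratio of -0.80 (SE 0.13; limma adjusted p = 0.759), and KIF2C, with a mean of -0.51 (SE 0.13; limma adjusted p = 0.759). Both were lower in both lines, and neither holds after adjustment. With spike-in scaling 106 genes passed, none of them a member.

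Between the untreated lines, 9 of 10 members were brighter in PC3, with a median log2 ratio of 0.45, but with scaling by the 50th percentile only 4 were and the median was -0.04, and with spike-ins all 10 were and the median was 0.96. These scalings moved the median of all genes from -0.11 to -0.60 and 0.40. Each of the 3 shifts all genes of an array by the same amount, so the members' median had to stay 0.56 above it. Of all genes 44.8% were higher in PC3. KIF18A and KIF23 were at least 2-fold higher, with log2 ratios of 1.40 and 1.02, where 13.5% of all genes were. The second KIF23 probe gave 0.82, which is under 2-fold. Neither call held under every alternative. KIF18A and KIF23 were at 0.915 and 0.532 with the 50th percentile and at 0.931 and 0.942 with the normexp background, all under 2-fold. KIF20A was the lone member below LNCaP, at -0.35, with no overlap between the scaled spots of the control arrays, although their unscaled intensities overlapped and spike-in scaling turned the ratio to 0.16.

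Kinesins outside mitosis were counted in the same way. Of 31 transport and ciliary kinesins with their light chains and accessory subunits, which carry vesicles, organelles and ciliary cargo, 15 were well above background in each line. In LNCaP 2 of 15 were lower and the median log2 ratio was 0.17; in PC3 5 of 15 were lower and the median was 0.16. The extremes in PC3 were KIFC3, at -1.42, and the light chain KLC1, at 0.60. Of the other kinesins of the spindle and centrioles, KIF20B, KIF22, KIF2A and KIF24 were lower in LNCaP, 4 of 4 measured. The first 3 of these were lower in PC3, where KIF24 was not measured. KIF20B was at -0.42 in LNCaP and -0.67 in PC3. Promoters of the transport group that were in the table held TTTGAA or TTTAAA in 2 of 21, none with a copy within 100 bases before the start or after it.

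The genes of proteins that mitotic kinesins work with were mostly lower too. Of 31 partners and cargo, 28 were lower in LNCaP and 29 in PC3, with median log2 ratios of -0.19 and -0.38. TPX2, which loads KIF15 and KIF11 on the spindle, was at -0.29 in LNCaP and -0.47 in PC3. For KIF20A's cargo, the passenger complex, AURKB was at -0.45 and -0.42, INCENP at -0.34 and -0.24, BIRC5 (survivin) at -0.25 and -0.33, and CDCA8 (borealin) at -0.31 and -0.28. RACGAP1, which forms centralspindlin with KIF23, was at 0.06 and -0.33, and ECT2, the exchange factor it recruits, at -0.03 and -0.48. PRC1, the partner of KIF4A, was at -0.13 and -0.30. CIT, the citron kinase that KIF14 recruits, was at -0.84 and -0.43, and BUB1B, the checkpoint kinase bound by CENPE, at -0.29 and -0.50. Of 25 partner promoters in the table, 21 held TTTGAA or TTTAAA.

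Among 20 measured mitotic kinases and checkpoint genes, 19 were lower in each line, with medians of -0.25 and -0.35. The factors that read the CHR and their regulators were mixed in LNCaP, where 12 of 21 were lower and the median was -0.05, and mostly lower in PC3, at 16 of 20 with a median of -0.35. FOXM1 was at -0.32 in both lines, and MYBL2 (B-MYB) at -0.27 and -0.36. The DREAM subunits LIN9 and LIN54 were at -0.04 and -0.05 in LNCaP and -0.41 and -0.39 in PC3, and E2F4 and RBL1 (p107) at -0.18 and -0.29 in LNCaP and -0.32 and -0.34 in PC3. Other DREAM subunits went both ways. LIN37 was at 0.04 in LNCaP and 0.52 in PC3, and RBL2 (p130) at 0.35 and 0.25. TFDP1 was at 0.02 and -1.22, E2F5 at 0.03 and -0.47, and RBBP4 at 0.085 and -0.33. LIN52 was at -0.16 and -0.365, and TFDP2 at -0.24 and -0.26. All of these but TFDP1 were named after their values were seen. E2F1 was at -0.38 in LNCaP and -0.86 in PC3, and E2F2 at -0.26 and -0.98. CDKN1A, the p21 inhibitor of cyclin-dependent kinases, was at 0.04 in LNCaP and 1.32 in PC3. Whether any of these bears on the kinesins was not tested.

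**Figure D5:**
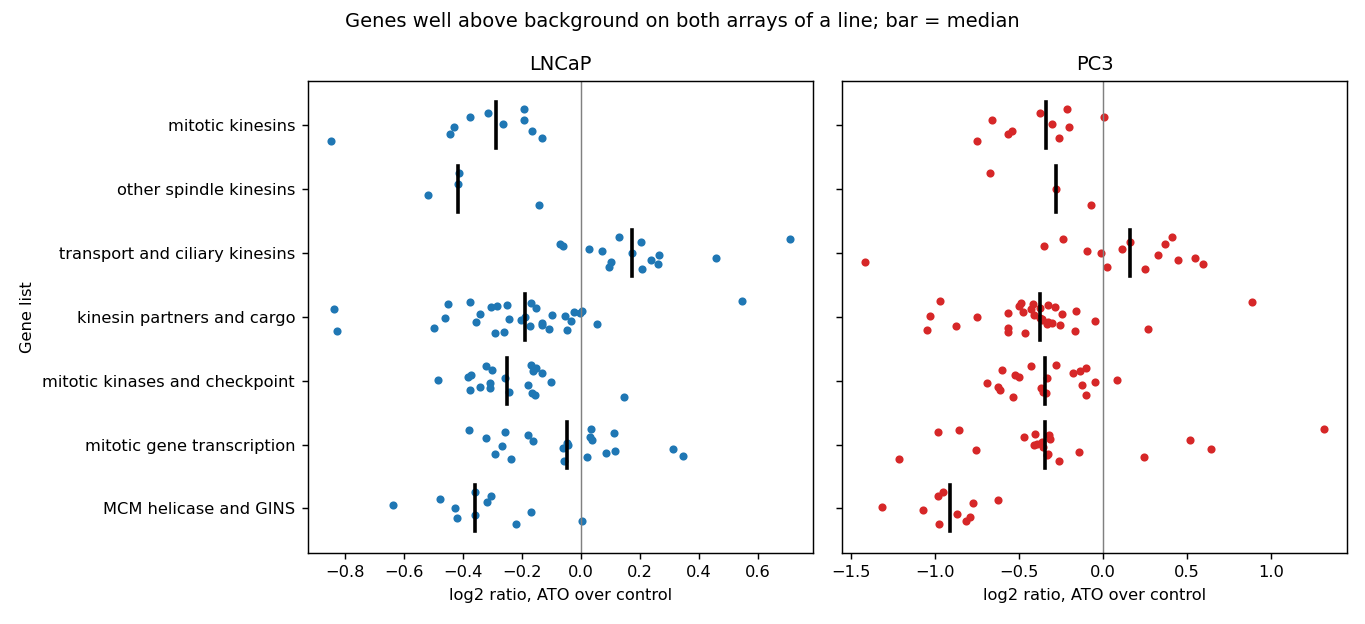
Log2 ratio of ATO over control for each gene well above background on both arrays of a line, by gene list, in LNCaP (left) and PC3 (right); vertical bars are list medians. The mitotic kinesins have medians of -0.29 and -0.34, the transport and ciliary kinesins 0.17 and 0.16; with spike-in scaling the LNCaP median of all genes moved from 0.02 to 0.20.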

How the data were processed

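Spot intensity, on a linear scale, was deposited as the authors obtained it with Agilent Feature Extraction 9.5.3.1 (version per the file headers): background-subtracted, with a surrogate value for spots not above background. The files also hold local backgrounds and other flags, including yes or no calls, as deposited. The authors' deposited value table holds a ratio per probe, which for the 48 member values lay within 2% of the processed intensity over the 75th percentile across probes. Probe coordinates in the files are on hg18; no annotation of that build was used here.

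Outlier spots were left out, log2 intensity was averaged over a probe's spots, and the 75th percentile over gene spots was subtracted. The brightest probe with values on all 4 arrays stood for a gene. A probe was well above background where over 50% of its spots were. Differences were counted at 1.5-fold after ATO and 2-fold between controls, without p-values. Both lines were tested in limma 3.58.1 (R 4.3.3; two-sided, Benjamini-Hochberg), which was tested on simulated data. Alternatives were scaling by the 50th percentile, spike-ins, quantile or cyclic loess, normexp (offset 50), probe choice, outlier and background handling, and the deposited table. Members and gene lists were chosen with earlier results of these data known. All members were named, with fixed partners and regulators and, per list, up to 4 genes with the largest PC3 log2 ratio. Promoters came from RefSeq, 1 window per symbol.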

Additional observations from a re-analysis of the deposited data

Results flagged for a closer look

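KIF14 was lower after ATO in LNCaP, at a log2 ratio of -0.38, and at 0.01 in PC3. The difference between the lines, 0.386, was not tested, and its 1 probe had a single spot per array. With spike-ins its ratios were -0.195 in LNCaP and -0.068 in PC3, so the size of that difference depends on the scaling.

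The KIFC1 spot had a local background of 220.5 on the LNCaP ATO array, against 119 on the LNCaP control array; it was the member with the lowest log2 ratio in that line, and the part of the background in that ratio was not tested.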

How the results depend on the processing

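With 1 array per group, no replicate could be left out and no difference within a line has a p-value. The median of the members stayed below 0 after ATO in both lines under every alternative run; in PC3 it was -0.153 with the 50th percentile, which moved the median of all genes to 0.20. The count of members at least 1.5-fold lower in LNCaP, 1, became 0 without bright local backgrounds, 0 at 2-fold and 4 at a laxer fold. In PC3 that count, 2, became 0 with the 50th percentile, 4 with spike-ins, 1 with normexp, 0 at 2-fold and 5 at a laxer fold. Members lower by any size numbered 8 with spike-ins in LNCaP, where the median of all genes was 0.20, and 10 with spike-ins in PC3. The median between controls was -0.037 with the 50th percentile and 0.958 with spike-ins, against 0.452. No alternative brought a member past the limma test. Relative to the median of all genes the members' median was between -0.312 and -0.256 in LNCaP and between -0.365 and -0.296 in PC3. Scaling by the 50th percentile or spike-ins cannot change that distance. Of 269 single-gene alternatives, 26 moved by more than the copy spread, 23 of them between controls. Many of the 269 could not move, so their share is no measure of stability. Leaving out bright backgrounds alters no ratio of a gene that stays. The median over probes is unchanged for the 8 genes with 1 probe, and keeping outlier spots changed CENPE alone. The counts of spot positions under other scalings and the difference between lines by second probe were added after the data were seen.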

Other observations

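The genes of the MCM helicase and GINS, which unwind DNA in S phase, were further from 0 in PC3 than in LNCaP. In LNCaP 10 of 11 were lower, with a median log2 ratio of -0.36, near that of the mitotic kinesins; in PC3 all 10 measured were at least 1.5-fold lower, with a median of -0.91. MCM2 was at -0.43 in LNCaP and -1.32 in PC3. None of the 8 of these promoters in the table held TTTGAA or TTTAAA, and 6 held CCAAT. The difference between the groups was not tested.

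Among kinesin partners with large values in PC3, MKI67, the proliferation marker Ki-67 that coats mitotic chromosomes, was at -0.06 in LNCaP and -1.03 in PC3, SPC24, a kinetochore subunit, at -0.05 and -1.05, and ANLN (anillin), of the cleavage furrow, at 0.55 and -0.97. The probes of all 3 lay in the last 38 rows of the array, at rows 512, 521 and 503, where copies of a probe varied most, as for KIFC1. ARHGEF2 (GEF-H1), an exchange factor for RhoA, went the other way, at -0.38 in LNCaP and 0.89 in PC3, and its probe lay outside those rows, at row 365. The part of position in these values was not tested.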
